A study of Solanum virginianum with 24 samples.

Results

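The ripening step of eggplant fruit was taken as the difference between fruit harvested 20 days post anthesis (dpa) and fruit harvested at 50 dpa, with 3 arrays at each age. Its members are the 6 arrays of these ages together with the 6 columns of 0 dpa values that were normalised with them, 12 of the 24 columns in the table. They come from 9 distinct arrays, because the same 3 arrays of 0 dpa recur in every set. All fruit came from 1 cultivar, named PPL in the labels, grown under glass, with flowers pollinated by hand at anthesis; no stage received any other treatment, and the labels give no genotype beyond the cultivar. The labels call the 3 arrays of an age biological replicates, without saying whether they came from separate plants or how many fruits were pooled. The series title names Solanum melongena, whereas the sample records give Solanum virginianum. The array was one made for tomato, so symbols and gene roles below are those of tomato, and an eggplant transcript that differs from the tomato probe, or a related family member, can alter the signal.

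A fleshy fruit of the nightshade family first grows by cell division, then by cell enlargement, and finally ripens. In tomato, where ripening is best known, the MADS-box factor RIN and the NAC factor NOR switch on ethylene production, carotenoid synthesis and enzymes that loosen the cell wall, while chloroplasts lose chlorophyll and become chromoplasts. Eggplant fruit is regarded as non-climacteric, meaning that it ripens without the burst of ethylene and respiration seen in tomato, and its skin owes its colour to anthocyanins, made by the flavonoid pathway, and not to lycopene.

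The values deposited were log2 expression values in which each probe set had been centred within its set of 6 columns, so they hold no signal level and genes cannot be ranked by abundance. Each array was expressed relative to the mean of the 3 arrays of 0 dpa normalised with it, on the log2 scale, and this is called the relative value below; it sets values across tables that were normalised separately. A difference is the mean relative value at 50 dpa minus that at 20 dpa, given with its standard error from limma after ±, and an adjusted p is limma's with Benjamini-Hochberg adjustment over 10101 probe sets, two-sided, with 3 arrays per age. A gene rose or fell where the adjusted p was under 0.05. Only 909 of the 10101 probe sets carried a gene symbol, for 802 genes, so most of what moved has no name here.

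Arrays of one age were alike. Across probe sets the lowest correlation between the relative profiles was 0.917 among the arrays of 20 dpa and 0.938 among those of 50 dpa, against 0.557 to 0.580 between the ages. Array medians of the relative values lay between -0.03 and 0.02. The median SD over 3 arrays was 0.110 at 20 dpa and 0.117 at 50 dpa. Of the control probe sets for spiked bacterial transcripts, none of the 36 labelling and none of the 21 hybridisation ones passed the test, but 34 of the former were lower at 50 dpa (median -0.17) and 20 of the latter higher (median 0.09). Over all 108 control probe sets, 9 passed. Among them were the Tag controls TagJ-3 (0.54), TagC (0.49) and TagD (0.44), all higher at 50 dpa. Their adjusted p by limma ran from 0.00396 to 0.00586, and the other Tag controls did not pass. Several rises given below are no larger than these. Some RNA-quality controls moved too. The control for large-subunit rRNA was higher by 1.03 ± 0.278 at 50 dpa (adjusted p = 0.0114), while that for small-subunit rRNA differed by -0.35 ± 0.270 (adjusted p = 0.359). The relative value of a 5' probe set minus that of the 3' one gives the change of their ratio since 0 dpa, not which was stronger. For GAPDH it went from 0.954 ± 0.179 (SD, n = 3) to 0.315 ± 0.140. For actin it went from 0.521 ± 0.0627 to 0.386 ± 0.154, and for ef1a from 0.375 ± 0.0940 to 0.150 ± 0.110. Their part in the results below was not tested. Tissue markers could not be checked for presence, since the values hold no level.

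Between 20 and 50 dpa, 3510 probe sets passed the test (34.7%), of which 1949 rose (19.3%) and 1561 fell (15.5%). Rises outnumbered falls, although not when the median of each array was taken off (1645 and 1736), and large changes were mostly falls: 395 probe sets fell at least 2-fold (3.91%) and 200 rose at least 2-fold (1.98%). The 3 arrays of one age lay wholly above or below the 3 of the other for 4706 probe sets (46.6%). The median difference over all probe sets was 0.05. Among the 802 genes with a symbol, 218 rose and 153 fell, 28 and 63 of them at least 2-fold. The spread of the 3 arrays of 0 dpa, which carry the bridge between the sets, is not in these standard errors, and counting all 12 columns as if independent left 2287 probe sets, 1177 higher and 1110 lower.

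**Figure D1:**
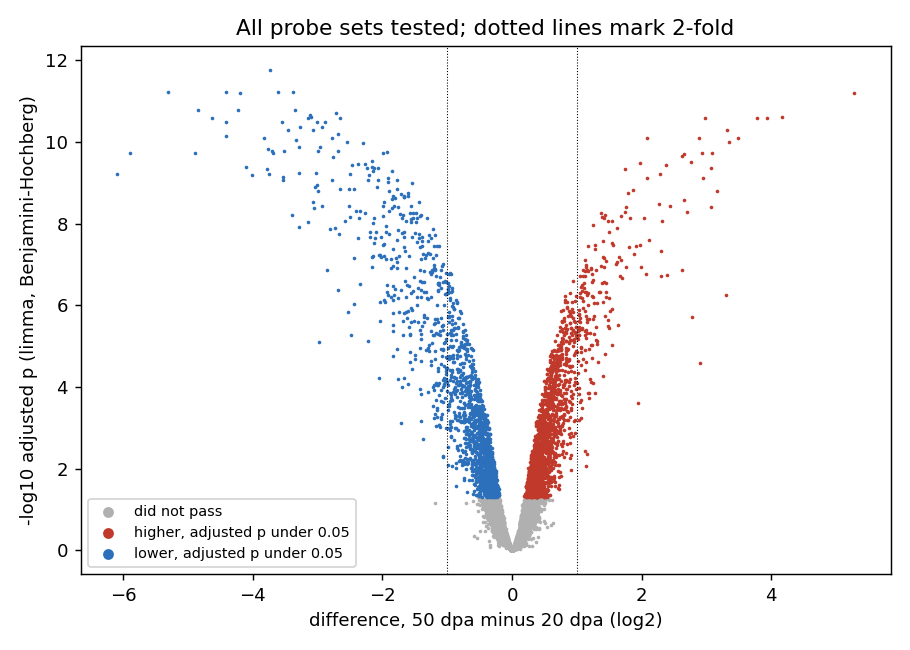
Difference between 50 and 20 dpa (x axis, log2) against -log10 of limma's adjusted p (y axis) for each of the 10101 probe sets; red and blue points passed the test upward and downward, grey points did not, and dotted lines mark 2-fold. The left arm beyond 2-fold holds 395 probe sets that passed and the right arm 200.

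The largest falls included genes of the cell wall and of cell division and the catalase gene CAT2. The largest rise among genes with a name was also in a cell wall gene. XET2, a xyloglucan endotransglycosylase that cuts and rejoins wall xyloglucan, stood at 0.12, 0.14 and 0.07 at 20 dpa and at 4.24, 4.29 and 4.31 at 50 dpa. The ages were far apart and each was tight, and the rise was 4.17 ± 0.115, or 18-fold (adjusted p = 2.44e-11). TomloxE, a lipoxygenase that oxidises fatty acids, came next, moving from -0.12, -0.24 and -0.39 to 3.07, 3.16 and 2.95, a rise of 3.31 ± 0.103. The other 8 of the 10 largest rises with a gene name were CHS1, CrtR-b1, NML2, Eix1, ALPHA-DOX2, RIN, Xegip and CHS2, between 2.90 and 1.29. On the falling side, the 10 largest were CDKB2, MAN2, XTH1, TPRP-F1, CEL8, CAT2, LEJA1, CYCD3, MKK3 and PCNA, between -3.82 and -2.37.

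**Figure D2:**
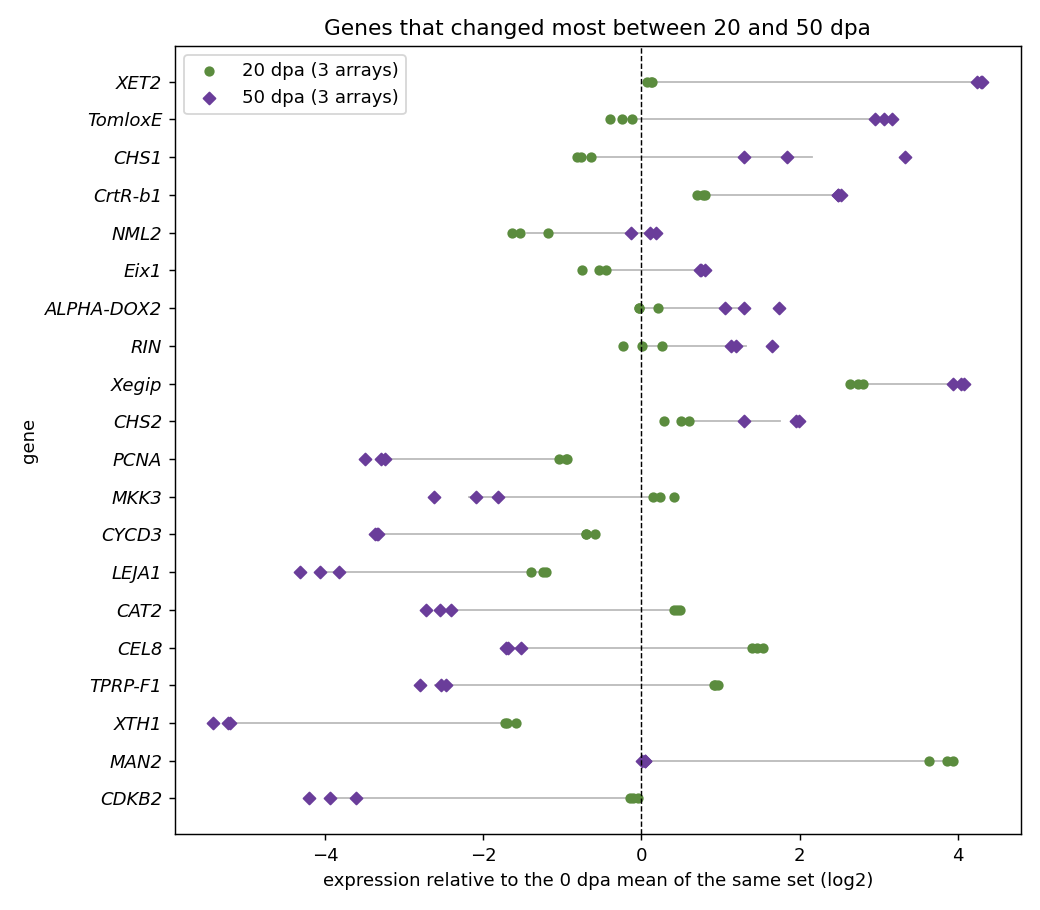
Relative value (x axis, log2, 0 being the 0 dpa mean of the same set) of the 10 largest rises and 10 largest falls among named genes; green circles are the 3 arrays of 20 dpa, purple diamonds the 3 arrays of 50 dpa, and grey lines join the means. Genes were picked only where the arrays of the ages do not overlap, which held for 46.6% of all probe sets. CHS1 has the widest spread at 50 dpa, from 1.29 to 3.34.

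Genes for enzymes of the cell wall included more falls than rises: 23 of 48 members fell, 4 rose and 21 did not pass, whereas 153 of all 802 genes with a symbol fell and 218 rose. Of the falls, 13 reached 2-fold, and the list's median was -0.35 beside 0.05 for all probe sets. MAN2, an endo-beta-mannanase that cuts the wall's mannans, had relative values of 3.86, 3.93 and 3.63 at 20 dpa and 0.00, 0.04 and 0.05 at 50 dpa. It therefore went from well above its 0 dpa level back to it and fell by 3.78 ± 0.150, or 13.7-fold (adjusted p = 4.58e-10). XTH1, of the same enzyme family as XET2, moved the other way from it: -1.59, -1.70 and -1.72 at 20 dpa and -5.20, -5.23 and -5.41 at 50 dpa, 12.2-fold lower. CEL8, an endo-beta-1,4-glucanase, stood at 1.39, 1.46 and 1.53 and then at -1.52, -1.69 and -1.72, 8.59-fold lower.

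The other wall genes that fell at least 2-fold spanned several enzyme classes. Among expansins, which loosen the wall without cutting it, EXPA4 fell by 2.23, EXP5 by 1.27, EXP12 by 1.06 and exp11 by 1.03. Of the beta-galactosidases, which trim galactose from wall polymers, TBG3 fell by 1.81, TBG4 by 1.45 and TBG1 by 1.25. TBG4, the form tied to softening in tomato, stood at 1.90, 2.1 and 2.11 at 20 dpa and at 0.41, 0.37 and 0.99 at 50 dpa, so its arrays remained above the 0 dpa mean at both ages (adjusted p = 2.61e-06). The remaining members of this size were the endoglucanase Cel1 (-1.70), the pectin methylesterase PMEU1 (-1.56) and XTH16 (-1.90), the last with 3 probe sets that ranged from -2.55 to -0.15. Besides XET2 and Xegip, the 4 that rose held the beta-galactosidase TBG2 (0.53) and the pectinesterase PE1 (0.29), and the count of rises was 1 when the 0 dpa spread was kept in and 2 in the methods' t-test. Xegip, an inhibitor of xyloglucan-cutting enzymes, went from 2.80, 2.63 and 2.74 to 3.93, 4.04 and 4.08. The rise was 1.29 ± 0.0917, with adjusted p = 1.4e-07, and over 19 other settings the adjusted p ran from 1.24e-07 to 0.0692, the highest with the 0 dpa spread kept in. PG2, the polygalacturonase of ripe tomato, differed by 0.18 ± 0.112 (adjusted p = 0.26) and EXP1, the ripening expansin of tomato, by -0.16 ± 0.122 (adjusted p = 0.352), and neither passed.

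Genes that drive the cell cycle were among the steepest falls, although the list as a whole went both ways. Of 14 measured, 5 fell, 3 rose and 6 did not pass, beside 153 falls and 218 rises among all 802 genes. The list's median was -0.08. CDKB2, a cyclin-dependent kinase active around mitosis, stood at -0.04, -0.14 and -0.10 at 20 dpa, at its 0 dpa level, and at -3.61, -4.21 and -3.94 at 50 dpa. It fell by 3.82 ± 0.125, or 14.1-fold (adjusted p = 8.03e-11). CYCD3, a D-type cyclin of the entry into the cycle, went from -0.70, -0.58 and -0.71 to -3.34, -3.36 and -3.33, and PCNA, which clamps the polymerase to replicating DNA, from -0.95, -1.04 and -0.94 to -3.50, -3.24 and -3.30. Both were already below 0 dpa in every array of 20 dpa and fell 6.41-fold and 5.17-fold further. The A-type cyclins split, with CycA2 at -1.13 and CycA1 at -0.48 while CycA3 rose by 0.64. The other members that rose were CDKC (0.28), of a kinase class linked to transcription, and fsm1, a small MYB-like protein of early tomato fruit. fsm1 stood at -2.49, -3.45 and -3.44 and then at -2.37, -1.57 and -1.98, a rise of 1.15 ± 0.267 (adjusted p = 0.00444; 0.000439 to 0.118 over 19 other settings, the highest in the methods' t-test, in which 1 member rose). In whole fruit, fewer cells of a type and less RNA per cell cannot be told apart, here and in the other results.

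Most photosynthesis genes fell, at modest size. Of 8 measured, 6 fell, none rose and 2 did not pass, and the median was -0.70 beside 0.05 for all probe sets. Among all 802 genes with a symbol, 153 fell and 218 rose. PSBP, of the oxygen-evolving complex, stood at 3.70, 3.73 and 3.79 at 20 dpa and at 2.41, 2.44 and 2.42 at 50 dpa, and fell by 1.32 ± 0.0698 (adjusted p = 7.44e-09). The arrays of 50 dpa were thus still well above 0 dpa after a 2.49-fold fall. PETE, plastocyanin, fell by 1.20, from 0.75, 0.87 and 0.92 to -0.33, -0.29 and -0.44, and PSBO, also of the oxygen-evolving complex, by 1.14, from 2.46, 2.51 and 2.53 to 1.43, 1.43 and 1.23. The chlorophyll-binding proteins CAB4 and CAB6A fell by 0.83 and 0.58 and PsbQ fell by 0.45, whereas PSBR (-0.16) and CAB5 (0.07) did not pass. Both genes of chlorophyll synthesis fell, POR2, a protochlorophyllide reductase, by 0.34 (adjusted p = 0.0127; 0.00713 to 0.085 over 19 other settings) and GSA-AT, which makes aminolevulinate, by 0.31 (adjusted p = 0.0359; 0.00998 to 0.112). Their call was lost for both when replicate 3 of either age was left out or the 0 dpa spread was kept in.

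Among nitrogen genes, one of the chloroplast and one of GABA breakdown fell at least 2-fold. Of 7 measured, 3 fell, 1 rose and 3 did not pass, beside 153 falls and 218 rises among all 802 genes. The list's median was -0.02. GS2, the plastid glutamine synthetase, stood at 0.57, 0.45 and 0.37 and then at -1.87, -1.84 and -1.80, 4.91-fold lower (difference -2.29 ± 0.0776, adjusted p = 1.07e-10). GABA-TP2, a GABA transaminase, went from 0.14, 0.13 and 0.06 to -1.29, -1.01 and -1.53. The groups did not overlap in either gene, which held for 46.6% of all probe sets. Glutamate dehydrogenase gdh1 fell by 0.53, and gtsatom rose by 0.63, a call that was lost with the 0 dpa spread kept in and in the methods' t-test.

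**Figure D3:**
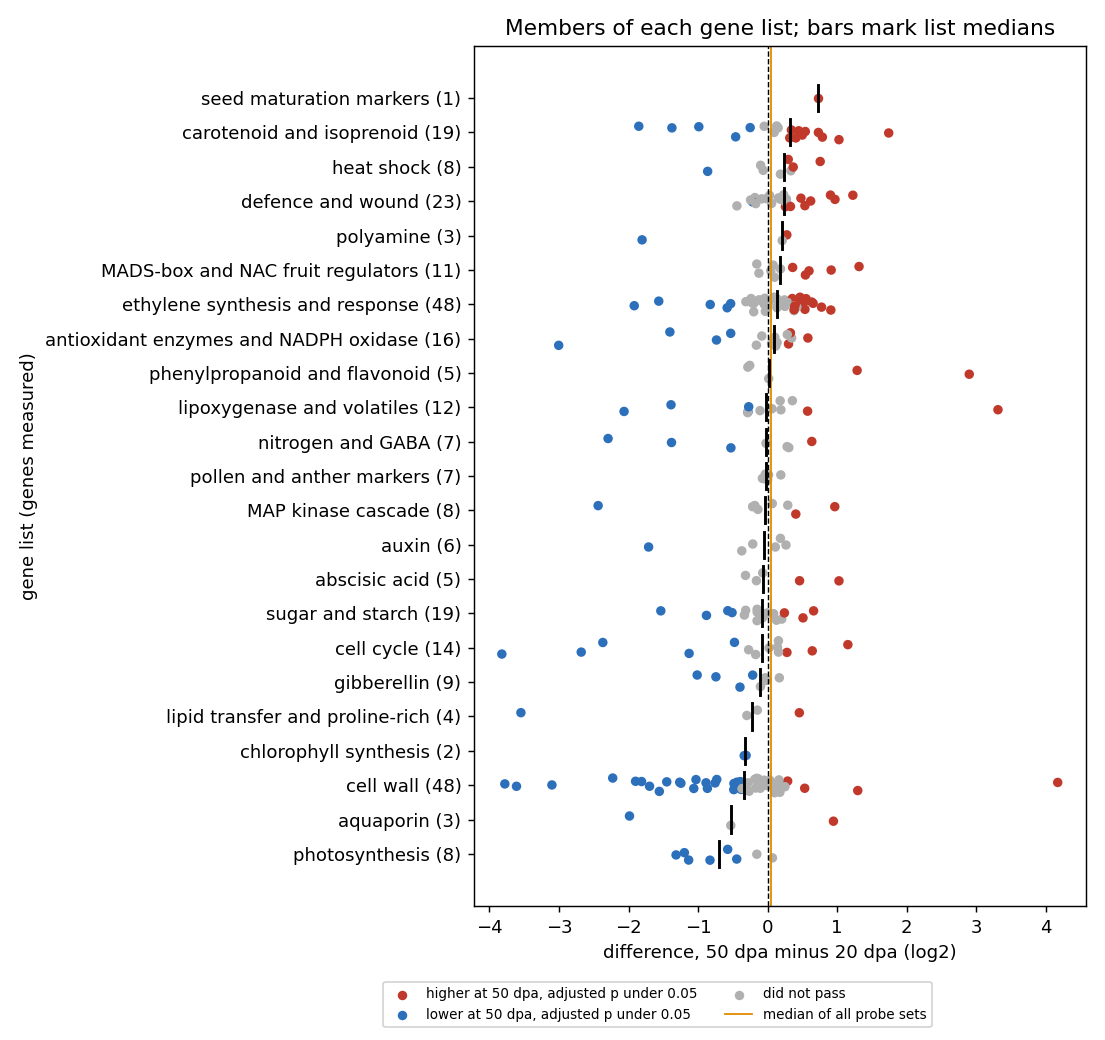
Difference between 50 and 20 dpa (x axis, log2) of each measured gene in 23 lists (y axis, number of genes in brackets); red and blue points passed the test upward and downward, grey points did not, black bars are list medians and the orange line is the median of all probe sets. The photosynthesis list has a median of -0.70, and the cell wall list has members at both ends, from -3.78 to 4.17.

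Ethylene genes changed mostly by small amounts, and the steepest changes among them were falls in synthesis. Of 48 measured, 15 rose, 5 fell and 28 did not pass, beside 218 rises and 153 falls among the 802 genes with a symbol; none of the rises reached 2-fold, and the median was 0.13. ACO5, an ACC oxidase for the final reaction of ethylene synthesis, stood at 6.36 in every array of 20 dpa and at 4.83, 4.73 and 4.82 at 50 dpa. It fell by 1.57 ± 0.0834, or 2.96-fold (adjusted p = 7.61e-09), and remained far above 0 dpa. SAM3, a synthetase of S-adenosylmethionine, from which ethylene is made, went from 0.68, 0.61 and 0.44 to -1.32, -1.43 and -1.26, so that it fell by 1.92 ± 0.156. ACO4 fell by 0.58, while ACO6 rose by 0.77, though its 3 probe sets ranged from -0.12 to 0.77. Among ACC synthases, which catalyse the committed reaction, ACS6 rose by 0.54 and ACS5 by 0.48, and ACS2, the ripening form of tomato, differed by -0.10 ± 0.131 (adjusted p = 0.595).

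Among genes of ethylene perception and response, the receptor ETR1 went from -0.48, -0.50 and -0.93 to 0.09, 0.00 and -0.09 (difference 0.63 ± 0.118, adjusted p = 0.000942), and the receptor ETR5 from -1.09, -1.04 and -1.20 to -0.50, -0.65 and -0.57 (adjusted p = 0.000145). Every array of 50 dpa lay above every array of 20 dpa in both, and 46.6% of all probe sets were apart in one direction or the other. ETR4 differed by 0.25 ± 0.120 and did not pass (adjusted p = 0.134; 0.0164 to 0.605 over 19 other settings). Downstream, EIN2 rose by 0.35 and the EIN3-like factors EIL3 and EIL4 by 0.65 and 0.42. Of the ERF-type transcription factors, PTI6 rose by 0.91 ± 0.178 (adjusted p = 0.00138), JERF1 by 0.55, PTI4 by 0.46 and ERF4 by 0.41, and ERF2 fell by 0.53. E8, a standard ethylene-induced gene of ripening tomato, stood at 0.05, -0.10 and 0.50 and then at 0.15, 0.09 and 0.20, overlapping between the ages (adjusted p = 0.985). The count of ethylene genes that rose was 9 with the 0 dpa spread kept in and 8 in the methods' t-test.

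Ripening regulators of the MADS-box and NAC families rose or did not pass. Of 11 measured, 5 rose, none fell and 6 did not pass, beside 218 rises and 153 falls among all 802 genes. The list's median was 0.18, and over the other settings 4 to 5 members rose and at most 1 fell. RIN stood at 0.27, -0.23 and 0.01 at 20 dpa, around its 0 dpa level, and at 1.14, 1.65 and 1.19 at 50 dpa. The rise was 1.31 ± 0.140, or 2.49-fold (adjusted p = 7.55e-06). NAC1 went from -0.26, -0.32 and -0.40 to 0.60, 0.43 and 0.73 (0.91 ± 0.0895), and NOR from 0.52, 0.44 and 0.81 to 0.90, 1.07 and 0.88 (0.36 ± 0.0991, adjusted p = 0.0127). All arrays of 50 dpa were above those of 20 dpa in these 3 genes, with the narrowest gap in NOR. Of all probe sets, 46.6% did not overlap in one direction or the other. The MADS-box genes TDR6 and MADS1 rose by 0.59 ± 0.0773 and 0.54 ± 0.0683. TDR4 (0.08 ± 0.0805, adjusted p = 0.496) and TAGL1 (0.10 ± 0.0974, adjusted p = 0.478), ripening factors in tomato, did not pass.

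Several carotenoid genes from phytoene onward rose, whereas isoprenoid genes upstream moved both ways and the gene on the branch to lutein fell. Of 19 measured, 10 rose, 5 fell and 4 did not pass, beside 218 rises and 153 falls among all 802 genes. The list's median was 0.32. CrtR-b1, a beta-ring hydroxylase that makes zeaxanthin, stood at 0.77, 0.80 and 0.70 and then at 2.48, 2.49 and 2.52, 3.34-fold higher (1.74 ± 0.0690, adjusted p = 4.5e-10). ZEP, which epoxidises zeaxanthin, went from -0.55, -0.07 and -0.25 to 0.56, 0.73 and 0.91, a rise of 1.03 ± 0.123. Neither gene's arrays overlapped between the ages, as in 46.6% of all probe sets. PSY2, a phytoene synthase, rose by 0.79 ± 0.129 (adjusted p = 0.000345), PDS, the phytoene desaturase, by 0.54 ± 0.120 (adjusted p = 0.00341; 0.000595 to 0.0671 over 19 other settings), and the lycopene cyclase LCY1 by 0.45. Psy1, the fruit-ripening phytoene synthase of tomato, differed by 0.09 ± 0.216 (adjusted p = 0.782), and its other-strand and sense probe sets gave the same call.

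On the falling side of that list, DXS, the first enzyme of the plastid isoprenoid route, went from 0.99, 0.95 and 0.76 to -0.35, -0.53 and -0.55 (-1.38 ± 0.0887, adjusted p = 5.44e-08). FPPS1, which makes farnesyl diphosphate for sterols outside the plastid, went from -0.39, -0.18 and -0.24 to -2.01, -2.16 and -2.20 (-1.85 ± 0.0924). The epsilon-cyclase CRTL-E-1, on the branch to lutein, fell by 0.99 ± 0.159. Carotenoid cleavage dioxygenases CCD1B and CCD1A fell by 0.46 and 0.25. Within the plastid route, later enzymes HDS (0.34) and ISPE (0.50) rose, as did HMGR (0.73), of the cytosolic route. In the methods' t-test 5 members rose and 3 fell.

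Chalcone synthase, the entry enzyme of flavonoid synthesis, rose in both measured copies. CHS1 stood at -0.76, -0.82 and -0.63 and then at 1.85, 1.29 and 3.34, a rise of 2.90 ± 0.353, or 7.45-fold (adjusted p = 2.67e-05). CHS2 went from 0.60, 0.50 and 0.29 to 1.29, 2.00 and 1.96 (1.29 ± 0.189, adjusted p = 0.000141). The arrays of 50 dpa were spread more widely than those of 20 dpa in both, and the genes are near copies that may share signal. Of the 5 genes measured in the phenylpropanoid and flavonoid list, these 2 rose, none fell and 3 did not pass. Among all 802 genes with a symbol, 218 rose and 153 fell. The list's median was 0.01. Those that did not pass were DFR, which makes the precursors of anthocyanins, at -0.29 ± 0.276 (adjusted p = 0.471), the quinate transferase hqt at -0.26 and the MYB factor ANT1 at 0.01.

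Lipoxygenase genes changed in opposite directions. Of 12 genes of fatty acid oxidation and volatiles, 2 rose, 4 fell and 6 did not pass, with a median of -0.02. Among all 802 genes with a symbol, 218 rose and 153 fell. Against the rise of TomloxE, loxC, which feeds the short-chain volatiles of tomato fruit, went from 1.45, 1.42 and 1.46 to -0.55, -0.59 and -0.73, 4.18-fold lower (-2.07 ± 0.0814, adjusted p = 4.35e-10). AOC, an allene oxide cyclase of jasmonate synthesis, fell by 1.39 ± 0.0818, hydroperoxide lyase HPL by 0.28 and loxD by 0.27, and LOXB rose by 0.57. ALPHA-DOX2, a fatty acid alpha-dioxygenase outside that list, went from -0.03, -0.03 and 0.21 to 1.74, 1.29 and 1.06 (1.31 ± 0.142, adjusted p = 8.78e-06).

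Gibberellin genes fell or did not pass, and genes of abscisic acid rose or did not pass. Of 9 gibberellin genes, 4 fell and 5 did not pass, with a median of -0.10. Among all 802 genes with a symbol, 153 fell and 218 rose. The gibberellin 20-oxidases 20ox-3 and GA20OX1, which make the precursors of active gibberellins, fell by 1.01 ± 0.191 (adjusted p = 0.00102; 0.00021 to 0.0589 over 19 other settings) and 0.74 ± 0.216 (adjusted p = 0.0169; 0.00538 to 0.0837), and the gibberellin count was 1 in the methods' t-test, without replicate 1 of 20 dpa and without replicate 3 of 50 dpa. Of 5 abscisic acid genes, 2 rose and 3 did not pass, with a median of -0.07. The 2 that rose were ZEP, counted with the carotenoids too, and TAS14, a dehydrin induced by this hormone. TAS14 differed by 0.46 ± 0.147 (adjusted p = 0.0275) and kept its call in 11 of 19 other settings. NCED1, the committed enzyme of abscisic acid synthesis, differed by -0.32 and did not pass (adjusted p = 0.191).

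The auxin response genes depended on which probe set stood for the gene, the array carrying probe sets of either strand for some genes. By the rule used, 1 of 6 fell and 5 did not pass, beside 153 falls and 218 rises among all 802 genes. The list's median was -0.05. The gene that fell was IAA16, an Aux/IAA repressor. On its other-strand probe set it went from 1.05, 1.72 and 0.99 to -0.44, -0.55 and -0.39 (-1.71 ± 0.312, adjusted p = 0.000788). On its sense probe set it went from 0.95, 1.03 and 1.01 to -2.41, -2.47 and -2.27, 10.4-fold lower. IAA7 differed by 0.18 on the other-strand and by -1.31 on the sense probe set. IAA27 differed by -0.37 and did not pass, but its second probe set differed by -0.98 and passed. With sense probe sets first, 2 genes of the list fell and the list's median was -0.43. With the mean over the probe sets of each gene 3 fell, and the median was again -0.43. IAA2 differed by 0.26 ± 0.125 (adjusted p = 0.129; 0.0333 to 0.539 over 19 other settings), and by -0.49 with sense probe sets first.

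Sugar and starch genes fell and rose in like numbers. Of 19 measured, 4 fell, 3 rose and 12 did not pass, beside 153 falls and 218 rises among all 802 genes. The list's median was -0.08. The fructokinases, which phosphorylate fructose for starch and respiration, moved in opposite directions. FRK2 stood at 0.92, 0.89 and 0.88 and then at -0.65, -0.63 and -0.65 (-1.54 ± 0.0664, adjusted p = 1e-09), and FRK3 at -0.50, -0.61 and -0.62 and then at 0.05, 0.13 and 0.07 (0.66 ± 0.0767, adjusted p = 1.71e-05). FRK2's arrays thus went from above the 0 dpa mean to below it, and FRK3's from below it to about that level. Neither age was tested against 0 dpa. The ADP-glucose pyrophosphorylase subunits AgpL1 and AGPL3, of starch synthesis, fell by 0.88 and 0.57. The invertase lin5 differed by -0.15 ± 0.119 (adjusted p = 0.359).

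Enzymes that handle reactive oxygen were led by a deep fall in a catalase. Of 16 measured, 4 fell, 3 rose and 9 did not pass, beside 153 falls and 218 rises among all 802 genes. The list's median was 0.09. CAT2, which breaks down hydrogen peroxide, stood at 0.45, 0.49 and 0.41 and then at -2.54, -2.72 and -2.41, 8.03-fold lower (-3.0 ± 0.0887, adjusted p = 3.27e-11). Its paralog cat1 differed by 0.08 and did not pass (adjusted p = 0.461). RBOH1, an NADPH oxidase that makes superoxide, went from 1.13, 0.87 and 1.26 to -0.67, -0.12 and -0.17 (-1.41 ± 0.148). The copper chaperone CCS and the monodehydroascorbate reductase MDHAR fell by 0.74 and 0.53, and the superoxide dismutase SODCC.1 and the ascorbate peroxidases APX2 and APX rose by 0.58, 0.33 and 0.30.

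Of 23 defence and wound genes measured, 8 rose, 1 fell and 14 did not pass, beside 218 rises and 153 falls among all 802 genes, with a median of 0.23, and the count of rises was 4 with the 0 dpa spread kept in or without replicate 1 of 20 dpa. CHI17, a chitinase, went from -0.03, -0.24 and -0.03 to 1.27, 1.11 and 1.00 (1.22 ± 0.133, adjusted p = 9.27e-06). The arginases ARG1 and ARG2, induced by wounding in tomato, rose by 0.97 ± 0.110 and 0.90, and are near copies that may share signal. Eix1, a receptor-like protein for a fungal xylanase, lay outside that list and went from -0.54, -0.45 and -0.75 to 0.76, 0.80 and 0.73 (1.34 ± 0.107, adjusted p = 4.79e-07). PR1b1, a pathogenesis-related protein, differed by -0.09 (adjusted p = 0.454).

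Of 8 MAP kinase cascade genes, 2 rose and 1 fell, beside 218 rises and 153 falls among all 802 genes. MKK3, a MAP kinase kinase, went from 0.41, 0.15 and 0.23 to -1.81, -2.09 and -2.63 (-2.44 ± 0.161, adjusted p = 6.91e-08), and MPK3, a stress-responsive MAP kinase, from 0.63, 0.46 and 0.50 to 1.54, 1.33 and 1.61 (0.96 ± 0.0974, its 3 probe sets from 0.21 to 0.96). Of 8 heat shock genes, 3 rose and 1 fell, beside the same 218 rises and 153 falls among all 802. HSP17-6, a small heat shock protein, was already at 3.91, 4.0 and 3.92 at 20 dpa and stood at 4.75, 4.70 and 4.64 at 50 dpa (0.76 ± 0.0806, adjusted p = 7.75e-06; 4.73e-06 to 0.216 over 19 other settings, the highest with the 0 dpa spread kept in, where no heat shock gene rose). The small chaperone vis1, linked to pectin in ripening tomato, went from 1.94, 1.35 and 1.51 to 0.78, 0.82 and 0.61 (-0.86 ± 0.226, adjusted p = 0.00946).

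Smaller groups held some of the deepest falls. TPRP-F1, a proline-rich protein of young tomato fruit, stood at 0.94, 0.92 and 0.97 and then at -2.48, -2.53 and -2.81, 11.7-fold lower (-3.55 ± 0.105, adjusted p = 3.27e-11). In the same group of 4, the lipid transfer protein LE16 rose by 0.46 ± 0.125 (adjusted p = 0.0125; 0.00128 to 0.11 over 19 other settings). The water channel Aqp2 fell by 1.99 ± 0.122, from 0.31, 0.60 and 0.69 to -1.37, -1.47 and -1.52, and the water channel pip1 rose by 0.95 ± 0.140, from -0.18, 0.00 and 0.26 to 0.72, 1.08 and 1.11. Within the group of 3 aquaporins the directions therefore differed. ADC, arginine decarboxylase of polyamine synthesis, fell by 1.81 ± 0.0851, from -1.55, -1.41 and -1.57 to -3.29, -3.46 and -3.20. Ornithine decarboxylase ODC, at the other entry to polyamines, rose by 0.28 ± 0.0819 (adjusted p = 0.019; 1.94e-05 to 0.0789 over 19 other settings). LEJA1 fell by 2.78 ± 0.119, from -1.25, -1.21 and -1.40 to -4.32, -4.06 and -3.82. NML2 rose by 1.51 ± 0.134, from -1.18, -1.54 and -1.63 to 0.10, 0.19 and -0.13.

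Markers of other material in a fruit were few. The seed maturation list had 1 measured gene, LEA14, which went from 0.02, -0.16 and -0.07 to 0.67, 0.65 and 0.63 (0.72 ± 0.0786, adjusted p = 9.65e-06). Its means at 5, 10, 20 and 50 dpa were 0.07, 0.45, -0.07 and 0.65, so it was also raised at 10 dpa. A single gene cannot show whether seed material changed, and its part in the other results was not tested. Of 7 pollen and anther markers 0 passed limma's adjusted test, 0 had an unadjusted p under 0.05 and 0 passed the methods' t-test. Their differences ran from -0.08 (LIN7, adjusted p = 0.637) to 0.19 (PRK2, adjusted p = 0.134).

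The single largest rise and the deepest falls were in probe sets without a symbol. Among probe sets without a symbol, the largest 2 rises were 5.27 and 3.93, the first from relative values near 0.11 at 20 dpa to 5.38 at 50 dpa (means of 3 arrays). The largest 2 falls were -6.09 and -5.89. No gene name is given to them, as the annotation used pairs none with these probe sets.

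The step was set against the one before it, from 10 to 20 dpa, to see which genes turned at 20 dpa. The steps share the arrays of 20 dpa, are of unequal length, and their difference was tested in the same limma fit; 2443 probe sets passed (24.2%). TBG4 rose by 2.05 from 10 to 20 dpa, from -0.02 to 2.04 in mean relative value, and then fell by 1.45, and MAN2 rose by 1.90 and then fell by 3.78. ACO5 rose by 2.96 and then fell by 1.57. In these 3 genes the arrays of 20 dpa were the highest of the 4 later stages. PSBP, by contrast, had fallen already, from a mean of 4.14 at 10 dpa to 3.74. CDKB2 was above 0 dpa at 5 dpa and declined from then on, with means of 2.20, 1.27, -0.10 and -3.92 at 5, 10, 20 and 50 dpa. RIN, CHS1 and TomloxE did not pass between 10 and 20 dpa (adjusted p = 0.456, 0.72 and 0.263 in that order) and rose between 20 and 50 dpa.

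**Figure D4:**
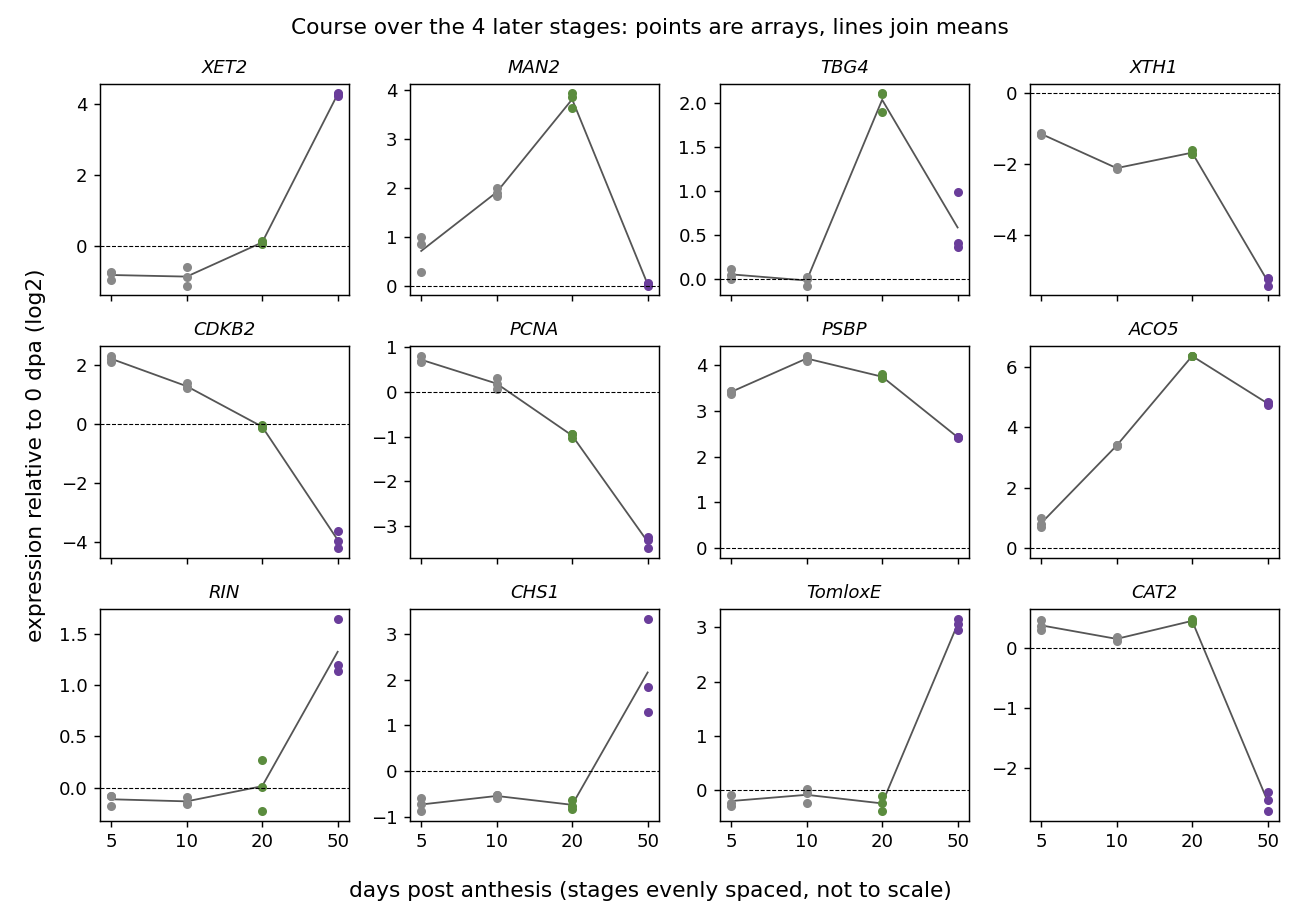
Relative value (y axis, log2, scaled separately in each panel; dashed line, 0 dpa mean of the same set) of 12 named genes at 5, 10, 20 and 50 dpa (x axis, evenly spaced and not to scale); points are the 3 arrays of a stage, green for 20 dpa and purple for 50 dpa, and lines join the means. MAN2, TBG4 and ACO5 peak at 20 dpa, CDKB2 and PCNA decline from 5 to 50 dpa, and RIN, CHS1 and TomloxE have their highest arrays at 50 dpa.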

How the data were processed

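Total RNA of whole fruit was labelled with biotin and hybridised to the Affymetrix tomato GeneChip. Per the series design text, the authors used RMA in GeneSpring GX 11.5 (background correction, quantile normalisation, median polish) and took log2. The deposited log2 values come in sets of 6 columns, a later stage with 0 dpa, and every probe set had a median of 0 within its set, to 5e-07; this centring is not described in the sources used here. Positive was taken as higher expression, which could not be checked against scanner values, and no filter on dim probe sets could be set.

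Relative values of the 12 arrays of 5, 10, 20 and 50 dpa were fitted with limma 3.58.1 (lmFit, eBayes) in R 4.3.3, and plots drawn with matplotlib 3.10.9. The median standard error of the difference was 0.113; that of the bridge through the 0 dpa arrays, 0.0457, is not in it. Same-numbered arrays of 20 and 50 dpa had residual correlations of -0.03 to 0.06, and arrays of other numbers -0.10 to 0.06. So few pairs cannot show whether the numbers pair arrays, and the main fit was unpaired. The 108 control probe sets were left out, and their own values came from a separate fit of all 10209 probe sets. The fit was tested on simulated data.

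Symbols came from the platform annotation of 2007: 909 probe sets had 1 symbol, 9192 none. Of 83 genes with several probe sets, 50 had 1 call in all of them and 0 had opposite calls. For each, a Les. identifier was taken before a LesAffx. one, then suffix order, then alphabetical order, which put 38 genes on an A1 (other-strand) probe set despite an S1 (sense) one.

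Named genes are the 10 largest rises and falls with non-overlapping arrays, LOC numbers passed over, the 2 smallest p of each list, and RIN, TAGL1, TDR4, NAC1, E8, ACO5, ACS2, ETR4, PG2, TBG4, EXP1, Psy1, PDS, DFR, CHS1, PSBP, CAB4, PSBO, POR2, lin5 and fsm1. Further list members were chosen after their values were seen. Members, lists and rules were chosen with earlier results of these data known. Alternatives were the arrays fitted, the 0 dpa reference, array scaling, a replicate block, each array left out, probe set choice and the methods' t-test (per the series design text, unpaired with false discovery rate adjustment).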

Additional observations from a re-analysis of the deposited data

Results flagged for a closer look

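These genes changed differently in the steps from 20 to 50 dpa and from 10 to 20 dpa, by limma's test of the difference between the steps (20 to 50 dpa minus 10 to 20 dpa, log2), with opposite directions in the steps. The steps share the 3 arrays of 20 dpa, so an error in those arrays enters both with opposite sign. Rises that gave way to falls were found in MAN2 (difference of steps -5.68), ACO5 (-4.53), XTH1 (-4.05), CEL8 (-3.55), TBG4 (-3.51), CAT2 (-3.31), RBOH1 (-2.54), FRK2 (-1.99) and 20ox-3 (-1.78). Falls that gave way to rises were found in NML2 (1.90), CHS2 (1.87), FRK3 (1.52), LEA14 (1.24) and ODC (1.19). The groups of 3 arrays are too small for a check of single outlying arrays.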

How the results depend on the processing

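Of the 3510 probe sets, 595 were left when a change of at least 2-fold was asked for as well. With the 12 columns of both sets fitted as if independent, which keeps the 0 dpa spread in and also drops the arrays of 5 and 10 dpa, 2287 passed, 1177 of them higher; the cause was not tested. Leaving out 1 array of 20, 50 or 0 dpa at a time gave 2996 to 3582 in all, 1609 to 2001 higher and 1378 to 1584 lower, with 196 to 209 and 391 to 405 of them at least 2-fold. For the difference of steps, leaving out 1 array of 20 or 50 dpa gave 1776 to 2346. Whether replicate numbers paired the arrays could not be settled. With the replicate block 3490 passed, 1934 higher and 1556 lower, and 2398 for the difference of steps. The methods' t-test called 2584, the fit of 6 arrays 3318, quantile normalisation 3014, and a 0 dpa median 3608. Without replicate 2 of 5 dpa, chosen after seeing the data as were the probe set alternatives, 3626 passed.

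Of 68 named genes, 55 passed, and 44 of these kept direction and call under all 19 alternatives. With the 0 dpa spread kept in 8 lost their call, and in the methods' t-test 7. ETR4 passed in 3 alternatives, IAA2 in 2, and PG2 and EXP1 in 1 each. A reading of signal over background was not possible, since the values hold no level. Background correction and probe-level normalisation could not be redone from these values.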
